A study of Sus scrofa with 15 samples.

Results

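Nuclear-encoded subunits of the mitochondrial respiratory chain and of ATP synthase were followed in backfat of Iberian pigs. The group was fixed as a list of 59 named genes, by what they encode and with no threshold on a measured value, though earlier results of these data were known when it was drawn up. Of these, 47 were matched by symbol to a gene of the count files, and all 47 passed the filter on low counts. They stand among 30477 genes in the files, of which 14918 were tested. The 12 listed genes without a match were NDUFA1, NDUFA12, NDUFA13, NDUFB3, NDUFC1, NDUFS7, UQCRB, UQCRH, COX6B1, COX6C, ATP5F1B and ATP5PD, and they are not analysed here. The 47 genes with counts comprised 21 of 27 for complex I, 2 of 2 for complex II, 6 of 8 for complex III, 11 of 13 for complex IV and 7 of 9 for complex V.

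The samples were subcutaneous backfat biopsies of growing pigs of the native Iberian breed, with 5 pigs in each of 3 diet groups. Pigs of the control group (C) received a compound feed, those of the DOP group a compound feed made with dry olive pulp, and those of the WCOC group a compound feed together with a silage of wet crude olive cake offered without limit. The comparisons ask how feeding these by-products of olive oil making alters the backfat transcriptome during growth. Each group was kept in a pen of its own, so diet and pen cannot be told apart. The feed allowance also differed between control and olive groups, and individual intake was not recorded.

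Oxidative phosphorylation takes place in the inner mitochondrial membrane. Complex I takes electrons from NADH and complex II from succinate, ubiquinone carries them to complex III, cytochrome c carries them to complex IV, and oxygen accepts them there. The protons moved on the way drive complex V, the ATP synthase. Complex II is encoded by nuclear genes alone, whereas the other complexes also hold subunits encoded by mitochondrial DNA. White adipocytes have few mitochondria compared with skeletal muscle fibres, and they draw on them for fatty acid synthesis, lipolysis and adipokine secretion. Some complex IV subunits have separate isoforms for heart and skeletal muscle.

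Between 22373715 and 34745218 reads per library were counted on genes. Libraries came from 2 flow cells, as named in the files. Flow cell A carried 4 C libraries and the 5 WCOC libraries, and flow cell B carried C replicate 5 and the 5 DOP libraries. ACTA1, the actin of skeletal muscle fibres, was measured to check the tissue. Its level was 1357, 14.9, 1883, 108 and 37.5 CPM (counts scaled to TMM-adjusted library size) in the C libraries, 12.6, 6543, 112, 3238 and 23994 CPM in DOP, and 116, 48.3, 5.75, 377 and 26.1 CPM in WCOC. Thus 5 libraries, C replicates 1 and 3 and DOP replicates 2, 4 and 5, exceeded 1000 CPM of ACTA1. CKM, the muscle creatine kinase and the most abundant other muscle gene, reached 8637 CPM in DOP replicate 5. The adipocyte gene PLIN1 was at 2115 CPM or more in all 15 libraries, and ADIPOQ was above it in each.

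The summed CPM of the members of each complex shows how the diets lay (the plot of summed CPM by complex). Complex III summed to 734 ± 106 CPM (SD, n = 5) in C, 831 ± 137 in DOP and 499.55 ± 75.7 in WCOC. Complex V summed to 1397 ± 177 CPM in C, 1589 ± 271 in DOP and 1017 ± 161 in WCOC. From C to WCOC the mean changed by -19.8% for complex I, with -23.9% for complex II, -31.9% for complex III, -25.7% for complex IV and -27.2% for complex V. For each of the 5 complexes the WCOC and C ranges overlapped. Against DOP, all WCOC libraries lay below all DOP libraries for complexes II, III and V, whereas the ranges overlapped for complexes I and IV.

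**Figure D1:**
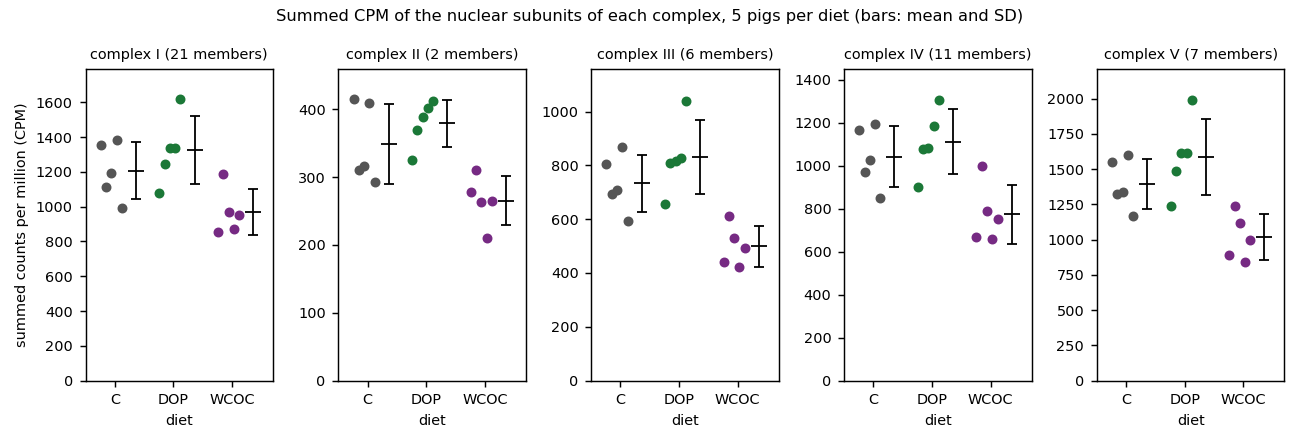
Summed CPM (vertical axis) of the nuclear subunits of complexes I to V for each diet (horizontal axis); a point is 1 pig and the bar gives the mean and SD. The WCOC means are the lowest for every complex, and for complex III they read 734 CPM in C, 831 in DOP and 499.55 in WCOC.

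Libraries differed from each other in the same direction across many members. C replicate 5 was the lowest control library for 33 of 47 members. DOP replicate 1 was the lowest DOP library for 40 members and DOP replicate 5 the highest for 35. WCOC replicate 2 was the highest WCOC library for 39 members, while WCOC replicates 1 and 4 were the lowest for 21 and 25 members. In this bulk tissue, fewer mitochondria-rich cells and less RNA per cell cannot be told apart.

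**Figure D2:**
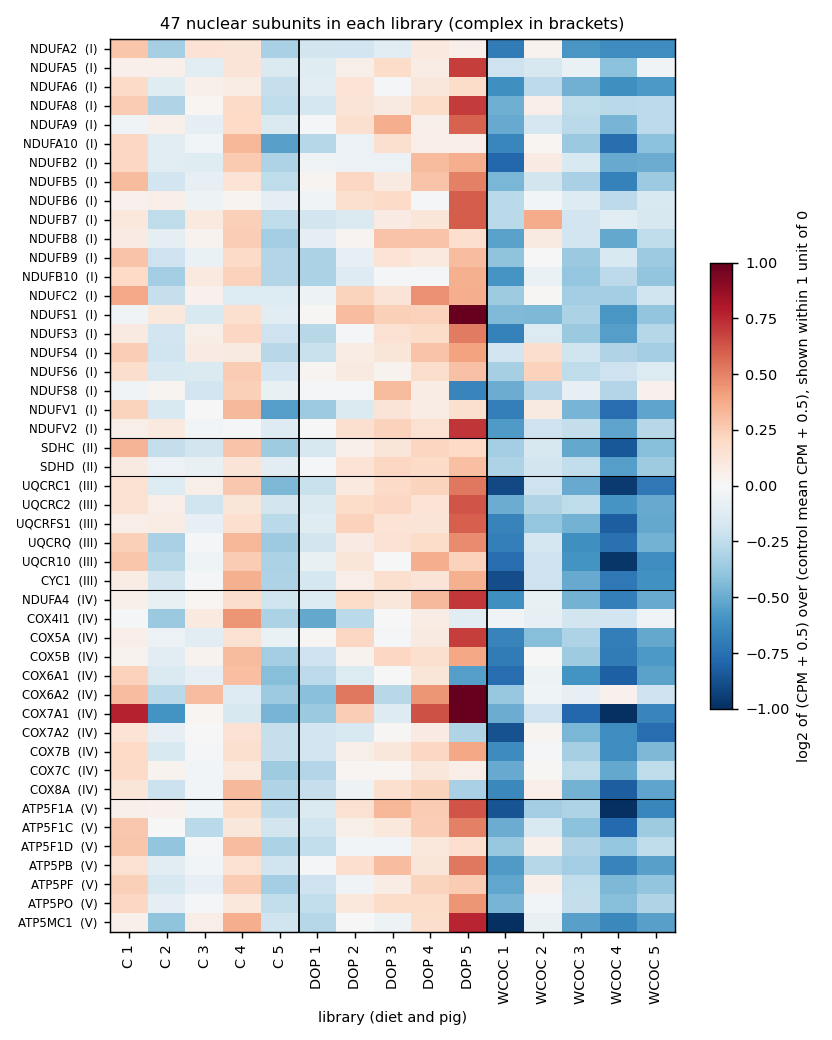
Colour gives the level of each of the 47 members (rows, complex in brackets) in each of the 15 libraries (columns) as the log2 of CPM + 0.5 over the control mean + 0.5; the colours end at 1 unit on either side of 0. Blue predominates in WCOC replicates 1, 3, 4 and 5, WCOC replicate 2 lies nearer to the control mean, and DOP replicate 5 has the deepest red.

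In backfat of WCOC pigs all 47 members had a lower fitted level than in control backfat. The median log2 fold change (log2FC) of the members was -0.40, a change of -24.2%, against 0.004 over all tested genes, and it ranged from -0.63 to -0.05. A gene was called where the adjusted p was under 0.05 and the log2FC at least 0.58 in size, in edgeR's quasi-likelihood test with Benjamini-Hochberg adjustment over all 14918 genes. On these limits 3 members were called lower, UQCRC1, UQCR10 and ATP5F1A, which is 6.38% of the members against 3.93% of all genes tested. With the adjusted p alone 12 members passed, all lower, or 25.5% of the members against 5.41% of all genes. For 10 members, 21.3%, every WCOC library was below every C library, compared with 3.87% of all genes. An unadjusted p under 0.05 was reached by 32 members, all lower, which is 68.1% against 13.1% of all genes that were lower at this limit.

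Complex III passes electrons from ubiquinol to cytochrome c, and all 6 of its measured members passed the adjusted p in WCOC pigs, with 2 of them past the fold limit as well. For UQCRQ and UQCRC2 this held in only 7 of 21 alternative settings each. UQCRC1 (ENSSSCG00000011356), a core protein of the matrix side, was at 172, 141, 162, 187 and 113 CPM in C, at 133, 166, 177, 181 and 224 CPM in DOP, and at 82.5, 134, 109, 79.7 and 94.4 CPM in WCOC. Of the WCOC libraries, 4 lay below every control library and replicate 2 lay inside the control range. Its log2FC was -0.63 (SE 0.17, adjusted p = 0.0311 in edgeR's test).

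UQCR10 (ENSSSCG00000024550) encodes a small subunit and lies on chromosome 14, 46783340 to 46786140, plus strand, in the Sscrofa11.1 build. It was at 75.8, 51.2, 60.7, 74.4 and 49.9 CPM in C, 59.2, 67.8, 62.7, 80.3 and 73.2 CPM in DOP, and 36.7, 54.1, 41.0, 31.5 and 40.4 CPM in WCOC. Again only WCOC replicate 2 entered the control range, and the log2FC was -0.62 (SE 0.15, adjusted p = 0.0217).

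UQCRFS1, the Rieske iron-sulphur protein, had 186, 187, 168, 200 and 147 CPM in C and 111, 136, 128, 100 and 125 CPM in WCOC. Here the ranges did not overlap, and the log2FC of -0.57 (SE 0.13, adjusted p = 0.0149) stopped just short of the fold limit. CYC1, the cytochrome c1 subunit, also had a log2FC of -0.57 (SE 0.14, adjusted p = 0.0241), with WCOC replicate 2 at 135 CPM above the lowest control at 125 CPM. UQCRQ, a small ubiquinone-binding subunit, was at a log2FC of -0.53 (adjusted p = 0.0465) and UQCRC2, the second core protein, at -0.42 (adjusted p = 0.0463). The ranges of UQCRC2 did not overlap, with 114 CPM in the lowest control and 110 CPM in the highest WCOC library. Of 21 alternative settings, UQCRFS1 passed the adjusted p in 21, UQCR10 in 17, CYC1 in 16 and UQCRC1 in 13, but UQCRQ and UQCRC2 in only 7 each. Of the members of other complexes that passed, NDUFA6 did so in 20 settings, COX5A and ATP5PB in 18, ATP5F1A and SDHD in 14 and COX7A2 in 7.

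Complex V makes ATP. ATP5F1A (ENSSSCG00000004499) encodes the alpha subunit of the catalytic head. It was at 605, 599, 565, 661 and 484 CPM in C, 527, 647, 735, 695 and 901 CPM in DOP, and 319, 461, 469, 289 and 371 CPM in WCOC. Every WCOC library was below every control library, and the log2FC was -0.61 (SE 0.16, adjusted p = 0.0285). ATP5PB, the b subunit of the stator stalk, had 159, 133, 141, 159 and 125 CPM in C against 96.7, 118, 112, 89.99 and 98.4 CPM in WCOC. These ranges did not overlap either, and its log2FC was -0.48 (SE 0.11, adjusted p = 0.0168). The other 5 members of complex V had values from -0.54 for ATP5MC1, a source of the membrane c ring, to -0.25 for ATP5F1D, and none of these passed.

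In complex IV, cytochrome c oxidase, 2 of 11 members passed the adjusted p alone. COX5A, a small structural subunit, was at 131, 120, 116, 139 and 120 CPM in C and 78.8, 93.3, 101, 77.3 and 87.5 CPM in WCOC, without overlap (log2FC -0.52, SE 0.13, adjusted p = 0.0212). COX7A2, the isoform found in most tissues, was at 56.3, 48.1, 51.2, 56.4 and 43.4 CPM in C and 27.8, 52.2, 37.1, 33.0 and 29.97 CPM in WCOC, with replicate 2 again inside the control range (log2FC -0.51, SE 0.15, adjusted p = 0.0427). COX6A1, per kilobase of transcript the most abundant of the 6 complex IV members with a known length (265 CPM per kilobase), had a log2FC of -0.52 with an adjusted p of 0.0662.

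In complex I, which oxidises NADH, 1 of 21 members passed. NDUFA6, an accessory subunit, lies on chromosome 5, 6562074 to 6567321, plus strand, and had the lowest adjusted p of the 47 members. It was at 64.3, 51.6, 58.1, 59.1 and 48.0 CPM in C and 36.7, 46.9, 40.2, 36.6 and 37.5 CPM in WCOC, without overlap (log2FC -0.51, SE 0.10, adjusted p = 0.00604). The core subunit NDUFS1, which carries iron-sulphur clusters, ranged from 70.0 to 87.0 CPM in C and from 51.6 to 62.2 CPM in WCOC. Although these ranges did not overlap, its log2FC of -0.44 had an adjusted p of 0.0718. NDUFB9, the complex I member with the highest level per kilobase (147 CPM per kilobase), had a log2FC of -0.25 (adjusted p = 0.254). The smallest difference was that of NDUFB7, an accessory subunit of the membrane arm, with a log2FC of -0.05 (adjusted p = 0.866).

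In complex II, succinate dehydrogenase, the membrane anchors SDHC and SDHD were measured. SDHD was at 144, 130, 129, 149 and 126 CPM in C, 134, 149, 157, 155 and 167 CPM in DOP, and 109, 119, 114, 92.4 and 106 CPM in WCOC. The WCOC values did not reach the control range, and its log2FC was -0.33 (SE 0.08, adjusted p = 0.0254). SDHC had the higher level per kilobase, at 149 against 141 CPM per kilobase, and a log2FC of -0.44 (SE 0.15, adjusted p = 0.081).

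**Figure D3:**
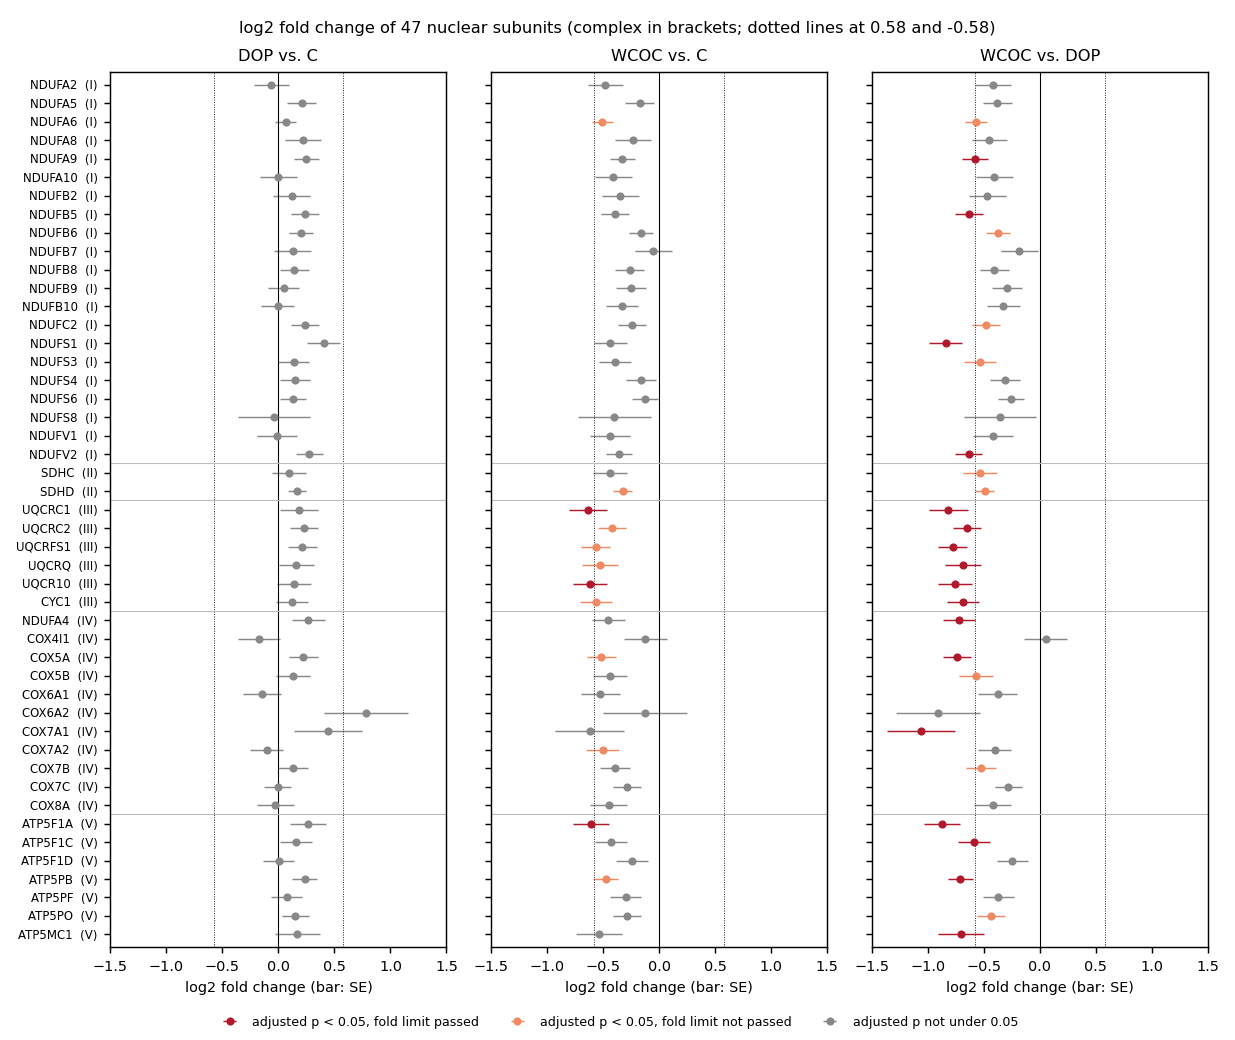
log2 fold change (horizontal axis, bar = SE) of each of the 47 members, grouped by complex, in the 3 comparisons; dotted lines mark 0.58 in either direction red points passed the adjusted p and the fold limit, orange points the adjusted p alone, and grey points neither. All 47 points lie below 0 for WCOC vs. C, where 3 are called, and 46 of 47 do for WCOC vs. DOP, where 17 are called; none is called for DOP vs. C.

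Several other gene lists were read for this comparison. The summed CPM of 16 matched skeletal muscle genes ranged from 249.56 to 5979 in C and from 214 to 1319 in WCOC, and TNNI2 was at 0 in every library. Only C replicates 1 and 3, at 3004 and 5979 CPM, lay above the WCOC range. All 15 tested muscle genes had a log2FC below 0, but 0 passed the adjusted p and 0 had an unadjusted p under 0.05. Without the 5 libraries above 1000 CPM of ACTA1 the members' median log2FC was -0.35, with 45 of 47 below 0, and 3 members passed the adjusted p and 0 the fold limit as well. With the mean of the muscle genes as a covariate 9 passed the adjusted p and none was called, at a median log2FC of -0.34. Macrophage genes were lower as well, at a sum of 392 to 1135 CPM in C and 162 to 448 CPM in WCOC, and 6 of 12 were called lower. Among 8 fibroblast genes 3 were called lower. The 12 adipocyte genes were split, with 7 above and 5 below 0, a median log2FC of 0.12 and a range from -0.40 to 0.66. Of these only ADIPOQ was called, as higher (log2FC 0.66, adjusted p = 0.0281 in edgeR's test). ADIPOQ passed the adjusted p in 13 of 21 alternative settings. Of 7 endothelial genes 1 was called higher, and of 5 epidermal genes none was called. The part of these cell types in the members' levels was not tested.

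Within flow cell A, which holds 4 C and 5 WCOC libraries, the median log2FC of the members was -0.46 and 5 were called. Lane was not equal there: the C libraries and WCOC replicates 1 to 3 were on lane 2, and WCOC replicates 4 and 5 on lane 8. Leaving out WCOC replicate 2 gave 14 called members, and without WCOC replicate 1, WCOC replicate 4 or C replicate 4 none was called, with 2, 3 and 5 members past the adjusted p. Leaving out C replicate 1 left 1 called member, WCOC replicate 5 left 2, C replicate 5 gave 7, and C replicate 2 and WCOC replicate 3 gave 5 each.

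In backfat of DOP pigs no member differed from control within the limits. In DOP vs. C no member was called, against 0.764% of all genes, and none passed the adjusted p alone, against 0.925%. DESeq2 and limma-voom called none either, and an unadjusted p under 0.05 was reached by 3 members in edgeR, 5 in DESeq2 and 2 in limma-voom. The 3 in edgeR were NDUFS1, NDUFV2 and NDUFA9, all of complex I and all higher in DOP. That is 6.38% of the members, while 9.6% of all genes were higher in DOP at an unadjusted p under 0.05. The fitted log2FC was above 0 for 37 of 47 members with a median of 0.14, and for no member did all DOP libraries exceed all C libraries, as 1.7% of all genes did. The median was 0.06 without DOP replicate 5, 0.084 without C replicate 5 and 0.094 without C replicate 2. It was 0.069 with the muscle mean as a covariate and 0.023 without the 5 libraries above 1000 CPM of ACTA1. Other settings raised it, to 0.204 without DOP replicate 1, 0.199 without C replicate 4 and 0.184 without C replicate 1. With flow cell as a covariate it was 0.398, with 0 of 47 members below 0. All 5 DOP libraries were on flow cell B and 4 C libraries on flow cell A. Diet and flow cell therefore cannot be told apart here except through C replicate 5.

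The widest differences from control in DOP pigs were in the muscle isoforms of complex IV. COX6A2, the heart and skeletal muscle form of subunit 6A, was at 31.4, 20.9, 31.5, 23.1 and 19.6 CPM in C, 18.8, 36.7, 20.7, 34.6 and 107 CPM in DOP, and 19.4, 24.6, 23.9, 26.05 and 21.9 CPM in WCOC. A single library, DOP replicate 5, with 23994 CPM of ACTA1, stood far above the rest. The 5 libraries with more than 1000 CPM of ACTA1 were the 5 highest for COX6A2. The log2FC of DOP vs. C was 0.78 (SE 0.37, adjusted p = 0.293), and without those 5 libraries it was -0.11.

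COX7A1, the corresponding isoform of subunit 7A, lies on chromosome 6, 45519225 to 45520721, minus strand. It was at 48.2, 18.3, 28.3, 24.97 and 20.2 CPM in C, 21.5, 33.4, 25.6, 43.9 and 65.4 CPM in DOP, and 19.7, 24.1, 16.1, 13.6 and 17.5 CPM in WCOC. The same 5 libraries were the highest. Its log2FC was 0.44 in DOP vs. C (adjusted p = 0.488) and -0.62 in WCOC vs. C (adjusted p = 0.21). For the isoforms of other tissues DOP replicate 5 stood at the other end. It was the lowest DOP library for COX6A1, at 115 CPM against 141 to 184 CPM in the others, and for COX7A2, at 41.4 CPM against 44.7 to 54.2 CPM.

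**Figure D4:**
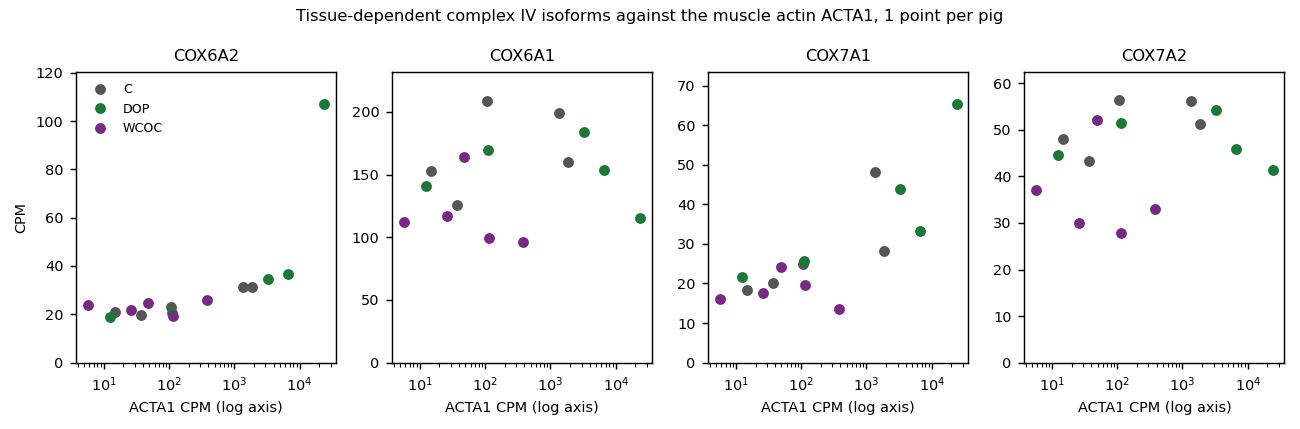
CPM of the complex IV isoforms COX6A2, COX6A1, COX7A1 and COX7A2 (vertical axes) against ACTA1 CPM (horizontal axes, log scale); a point is 1 pig, coloured by diet. The rightmost point, DOP replicate 5 with 23994 CPM of ACTA1, has the highest COX6A2 (107 CPM) and COX7A1 (65.4 CPM), but the lowest COX6A1 and COX7A2 of the DOP group.

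The comparison of the olive diets, WCOC vs. DOP, gave 17 members called lower, 36.2% against 5.11% of all genes, and none called higher. With the adjusted p alone 26 members passed, 55.3% against 7.2%, and for 14 members, 29.8%, all WCOC libraries were below all DOP libraries, against 4.77% of all genes. The median log2FC was -0.49, against 0.001 over all genes. The calls comprised all 6 measured members of complex III, 4 of 7 of complex V (ATP5F1A, ATP5F1C, ATP5PB and ATP5MC1), 4 of 21 of complex I (NDUFA9, NDUFB5, NDUFS1 and NDUFV2) and 3 of 11 of complex IV (NDUFA4, COX5A and COX7A1). Both members of complex II passed the adjusted p, though not the fold limit. This comparison shares its WCOC libraries with WCOC vs. C and its DOP libraries with DOP vs. C.

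COX7A1 had the largest difference, a log2FC of -1.06 (SE 0.31, adjusted p = 0.0365), with overlap between 24.1 CPM in the highest WCOC and 21.5 CPM in the lowest DOP library. Next among the called members was ATP5F1A at -0.88 (SE 0.16, adjusted p = 0.00503), and all its WCOC values were below 527 CPM, the lowest in DOP. NDUFS1 was at 78.5, 96.5, 91.8, 91.2 and 156 CPM in DOP and at 57.1, 56.8, 62.2, 51.6 and 59.1 CPM in WCOC. It had a log2FC of -0.84 (SE 0.15, adjusted p = 0.00412) without overlap, and DOP replicate 5 lay well above the other DOP libraries. NDUFA4, once counted with complex I and now placed in complex IV, was at a log2FC of -0.72 (SE 0.15, adjusted p = 0.00864). NDUFA9 stood at the fold limit, with a log2FC of -0.58 (SE 0.11, adjusted p = 0.00703).

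The remaining called members of this comparison had log2FC values between -0.82 and -0.59. UQCRC1 was at -0.82, UQCRFS1 at -0.78, UQCR10 at -0.75 and COX5A at -0.74. ATP5PB, at -0.71, had the lowest adjusted p of the members, 0.0025. The gamma subunit gene ATP5F1C was at -0.59, close to the fold limit. COX4I1 was the single member above 0, at 0.05, and its counts ran from 48 to 108 reads per library. NDUFS8, an iron-sulphur subunit of complex I, had only 6 to 29 reads per library, so that only large differences could have been detected. Whether the gene models behind these COX4I1 and NDUFS8 entries are complete was not tested, and their values may not stand for the whole gene. Overlap with other annotated genes was looked up only for the 30 members that RefSeq places by symbol, and not for the rest of the 47. Of the 30, NDUFA2, NDUFA8, NDUFB10 and NDUFS3 overlap other genes, so their counts are uncertain if strand was not used. Of these NDUFS3 passed the adjusted p (log2FC -0.53, adjusted p = 0.0267 in edgeR's test).

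Flow cell and muscle content both ran along this comparison. The olive diets were sequenced on separate flow cells, so diet and flow cell cannot be told apart here except through C replicate 5. With flow cell as a term no member was called, and 1 of 14918 genes was called in all, while the median log2FC of the members was -0.82. Muscle genes summed to 227 to 73130 CPM in DOP, and 12 of 15 tested muscle genes were called lower in WCOC. Without the 5 libraries above 1000 CPM of ACTA1, which leaves 2 DOP and 3 C libraries, no member was called, 1 passed the adjusted p, and the median log2FC was -0.38 with 45 of 47 members below 0. With the mean of the muscle genes as a covariate 5 members were called. Leaving out DOP replicate 5 alone left 10 called members, and leaving out WCOC replicate 2 gave 26.

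Genes of mitochondrial DNA encode the partner subunits of complexes I, III, IV and V, and all 13 had counts. For all 13 the fitted level in WCOC was below that in C (median log2FC -0.50), and 2 were called lower. Nuclear copies of these genes can share their reads. COX1, the catalytic core of complex IV, was at 42847, 29170, 35032, 39142 and 22777 CPM in C, 29148, 38945, 35361, 37019 and 33644 CPM in DOP, and 14695, 24916, 21151, 12645 and 17002 CPM in WCOC. C replicate 5 and WCOC replicate 2 made the ranges of WCOC and C overlap, while those of WCOC and DOP did not. Its log2FC was -0.90 against C (SE 0.22, adjusted p = 0.0188) and -0.95 against DOP (SE 0.22, adjusted p = 0.0145). ATP6, the proton channel subunit of complex V, was at -0.61 against C (adjusted p = 0.049) and passed the adjusted p in 7 of 21 alternative settings, against 16 for COX1. In DOP vs. C none of the 13 passed and the median was -0.09. ND6, a complex I subunit and the only protein encoded on the light strand, was called in WCOC vs. DOP (log2FC -0.94, adjusted p = 0.0207).

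A further list of 28 nuclear subunits of the same complexes had 18 tested genes, of which 17 had a log2FC below 0 in WCOC vs. C (median -0.33). None was called, and ATP5MC3, which encodes the same mature c ring peptide as ATP5MC1, passed the adjusted p at a log2FC of -0.46 (SE 0.11, adjusted p = 0.02). Against DOP the median log2FC of the 18 was -0.41, and ATP5MC3 again passed the adjusted p alone (log2FC -0.49, SE 0.11, adjusted p = 0.0143).

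Assembly factors, which build the complexes without staying in them, had a median log2FC of -0.12 in WCOC vs. C, and none of 32 tested genes passed the adjusted p. An unadjusted p under 0.05 was reached by 7 of them in edgeR, 21.9% against 26.4% of all genes, either direction. Against DOP 2 were called lower, ECSIT and UQCC1, which is 6.25% and close to the 5.11% of all genes. With the adjusted p alone 4 passed, all lower, or 12.5% against 7.2% of all genes, with NDUFAF1 and COX11 as the others. NDUFAF1 overlaps the gene NUSAP1, so its counts are uncertain if strand was not used.

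Among 13 regulators of mitochondrial biogenesis none was called in WCOC vs. C. ESRRA, a nuclear receptor that binds promoters of oxidative genes, passed the adjusted p alone and was lower in WCOC, with 18.5, 16.8, 20.3, 21.2 and 20.2 CPM in C and 12.01, 11.8, 13.4, 13.8 and 17.0 CPM in WCOC, so that only WCOC replicate 5 entered the control range (log2FC -0.52, SE 0.15, adjusted p = 0.0429). It passed in 7 of 21 alternative settings. ESRRA overlaps the gene TRMT112, so its counts are uncertain if strand was not used. GABPB1, a subunit of the ETS factor NRF-2, passed in the other direction (log2FC 0.33, SE 0.08, adjusted p = 0.0252). TFAM, which packages mitochondrial DNA, was at a log2FC of -0.04 (adjusted p = 0.78) and NRF1, a factor of many respiratory chain promoters, at 0.19 (adjusted p = 0.145). PPARGC1A, a coactivator of these factors, was at or below 0.987 CPM in every C and WCOC library and reached 9.8 CPM in DOP replicate 5, the library with most ACTA1. It was called in WCOC vs. DOP (log2FC -2.29, adjusted p = 0.0438), but passed the adjusted p there in only 5 of 20 alternative settings. Its log2FC was 2.12 in DOP vs. C (adjusted p = 0.147) and -0.17 in WCOC vs. C (adjusted p = 0.909).

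CYCS, cytochrome c itself, was at 64.4, 60.2, 71.4, 83.8 and 59.0 CPM in C and 28.4, 47.3, 39.7, 45.8 and 56.5 CPM in WCOC. These ranges did not overlap, with a log2FC of -0.64 (SE 0.22, adjusted p = 0.0846), and against DOP it was called (log2FC -0.90, adjusted p = 0.0215). Of the 6 tested electron carrier genes ETFA, which passes electrons from fatty acid oxidation to ubiquinone, passed the adjusted p in WCOC vs. C (log2FC -0.46, adjusted p = 0.0347). All 13 tested carriers, porins and import genes had a log2FC below 0 in WCOC vs. C (median -0.29). SLC25A5, an ADP/ATP carrier of most tissues, was called (log2FC -0.64, SE 0.12, adjusted p = 0.00532), and the outer membrane porin VDAC1 and the chaperonin HSPE1 passed the adjusted p. In WCOC vs. DOP 4 of these 13 genes were called lower, SLC25A4, VDAC1, VDAC3 and HSPE1, which is 30.8% against 5.11% of all genes. With the adjusted p alone 7 passed, all lower, or 53.8% against 7.2% of all genes. SLC25A4, the muscle and heart ADP/ATP carrier, was at 399 CPM in DOP replicate 5 and between 44.7 and 128 CPM elsewhere. Its log2FC in WCOC vs. DOP was -1.60 (adjusted p = 0.0266 in edgeR's test).

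Promoter letters were read for the members that RefSeq places on the Sscrofa11.1 build, which were 30 of the 47, or 63.8%. This share is too small for a statement on the members as a set. The 250 bases before each gene start were searched on both strands for GCGCATGCG (NRF1), TCAAGGTCA (estrogen-related receptors such as ESRRA), CCGGAAGTG (ETS factors such as NRF-2) and AAGATGGCG (YY1). Over 19556 protein-coding genes, 1.43%, 0.332%, 1.53% and 0.777% of promoters held these letters. Matches stood in 6 member promoters. Those of SDHD, COX5B, NDUFS1 and NDUFS6 are printed here as examples. NDUFV1 (ETS letters) and NDUFA5 (NRF1 letters) also held a match, which is not printed. Capitals mark the match and each run reads 5′ to 3′ along the gene's strand.
SDHD, receptor letters, chr9:39790620-39790649, plus strand: ggttgcgggaTGACCTTGAgccttcaggaa
SDHD, YY1 letters, chr9:39790449-39790478, plus strand: cacccagctcCGCCATCTTccgcgtcagcc
COX5B, ETS letters, chr3:56632108-56632137, minus strand: ctcaggagcctgttaCCGGAAGTGctggta
NDUFS1, ETS letters, chr15:109451877-109451906, minus strand: gccgccaggcCACTTCCGGcggaactgcag
NDUFS6, NRF1 letters, chr16:79000050-79000079, minus strand: cgaccgcaccGCGCATGCGcgcctcccagg
In SDHD the receptor letters end 15 bases before the gene start and the YY1 letters 186 bases before it, the latter inside the neighbouring gene TIMM8B. The NDUFS1 match lies inside the neighbouring gene EEF1B2. In NDUFS6 the letters overlap with their own reverse complement. Of the 6 members with a match, SDHD passed the adjusted p of edgeR's test in WCOC vs. C. In WCOC vs. DOP NDUFS1, COX5B and SDHD passed it. Over all 47 members 25.5% and 55.3% passed in these comparisons. NDUFS6 (adjusted p = 0.515 and 0.163), NDUFV1 (0.138 and 0.14) and NDUFA5 (0.422 and 0.0681) passed in none.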

How the data were processed

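Subcutaneous backfat RNA of 15 pigs was sequenced as paired-end libraries. Per the labels and the study's methods, the authors checked reads with FastQC, aligned them to Sscrofa11.1 with HISAT2 as strand-specific, and counted them per gene with HTSeq. The versions and the strand setting of the counting are not given in the sources used here. The deposited files hold raw counts for 30477 Ensembl genes and 5 summary lines, which were left out; 23.4% to 32.8% of read pairs fell in those lines.

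Symbols were assigned to Ensembl IDs from a supplied gene name table. Counts were fitted with edgeR 4.0.16 (TMM, filterByExpr by diet, quasi-likelihood test, 1 mean per diet over all 15 libraries), and p-values were adjusted over all 14918 genes. CPM values use the TMM-scaled library sizes. The SE is the log2FC without prior count over the square root of the F statistic. Alternatives used DESeq2 1.42.0 and limma 3.58.1, other scalings, no filter, subsets of libraries and covariates. The study's methods used DESeq2 with the same limits. Positions, transcript lengths and sequences are from RefSeq on Sscrofa11.1. Pigs are the replicates.

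The members and gene lists were chosen with earlier results of these data known. Named members are those called in any comparison, the most abundant of each complex per kilobase (or by CPM), the largest rise and fall in each comparison and both isoform pairs of complex IV; others are given as examples chosen after their values were seen. Of the other lists, ACTA1, the regulators PPARGC1A, TFAM, NRF1 and ESRRA, CYCS, the genes of mitochondrial DNA and genes past the limits are named, and a few that passed the adjusted p alone were chosen after their values were seen.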

Additional observations from a re-analysis of the deposited data

Results flagged for a closer look

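Within each diet, the highest and lowest library were compared with the other 4 for the summed CPM of the 5 complexes and for 22 named members. Of 81 groups of 5 libraries looked at, 5 held a library far from the others, and chance alone marks about 1 group in 20. DOP replicate 5, the library with the most ACTA1, accounted for 4 of them. It had 107 CPM of COX6A2 against 18.8 to 36.7 in the other DOP libraries, 156 CPM of NDUFS1 against 78.5 to 96.5, 203 CPM of COX5A against 124 to 145, and 88.9 CPM of NDUFV2 against 54.0 to 63.4. The last was WCOC replicate 2, with 35.5 CPM of NDUFB7 against 22.6 to 25.2 in the other WCOC libraries. None of the summed levels of the 5 complexes was marked in any diet.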

How the results depend on the processing

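The main counts of called members were 0 in DOP vs. C, 3 in WCOC vs. C and 17 in WCOC vs. DOP. DOP vs. C gave 0 in each setting run, but in 6 of them no gene of the whole series was called, so those say nothing of the members. Few genes of the whole series were called without DOP replicate 5 (1), with only the 2 diets (2) and without DOP replicate 3 (4), so these say little either. DESeq2, limma-voom, DESeq2 size factors, TMM without the most abundant genes, no filter and a fit of only the 2 diets gave 3 in WCOC vs. C and 15 or 16 in WCOC vs. DOP. On the adjusted p alone DESeq2 passed 24 members in WCOC vs. C against 12 in edgeR, and over all genes it called 496 in DOP vs. C against 114. Without the fold limit the counts were 12 and 26. Leaving out 1 library gave 0 to 14 in WCOC vs. C and 10 to 26 in WCOC vs. DOP. With flow cell as a covariate they were 7 and 0, and within flow cell A, which holds no DOP library, 5 in WCOC vs. C. With the muscle mean as a covariate they were 0 and 5. Without the 5 libraries over 1000 CPM of ACTA1, a choice made after seeing the data, they were 0 and 0. The members' median log2FC changed by more than 0.198 only with flow cell as a covariate, to 0.398 in DOP vs. C and -0.819 in WCOC vs. DOP. That limit is the within-diet SD of the libraries' mean log2 CPM over the members. It describes single libraries and not the error of a difference between diets, so smaller changes can matter. Without the ACTA1-rich libraries the median in DOP vs. C went from 0.143 to 0.023. The cause of these changes was not tested.

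With a replicate block the counts were 0 in DOP vs. C, 0 in WCOC vs. C (2 past the adjusted p) and 12 in WCOC vs. DOP. The numbers do not pair the pigs: correlations between same-numbered libraries ran from -0.495 to 0.345, and 0, 2 and 2 of 10 libraries correlated best with their own number.

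Of 688 log2FC values of named members under alternatives, 559 kept their direction and side of the threshold, 112 no longer passed, 4 newly passed and 13 changed sign. With flow cell as a covariate the sign changed in DOP vs. C for COX4I1 (0.202), COX6A1 (0.2803) and COX7A2 (0.131), and in WCOC vs. DOP for COX4I1 (-0.405). With the muscle covariate it changed for COX6A2 in WCOC vs. C (0.188) and WCOC vs. DOP (0.0301) and for NDUFB7 in WCOC vs. C (0.0303). Without the ACTA1-rich libraries COX6A2 was at -0.106 in DOP vs. C, 0.12 in WCOC vs. C and 0.226 in WCOC vs. DOP, and NDUFB7 was at 0.0112 in WCOC vs. C. Leaving out 1 library moved COX4I1 between -0.043 and 0.119 in WCOC vs. DOP and NDUFB7 between -0.193 and 0.00742 in WCOC vs. C. NDUFS8 had 6 to 29 reads per library, which limits its precision.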
